A study of Mus musculus with 6 samples.

Results

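The genes described here encode the proteins that sort membrane cargo on endosomes: retromer, the sorting nexins, the HOPS, CORVET and GARP tethers, and the ESCRT complexes. They were chosen by symbol, as the genes whose symbol is Vps, Snx or Chmp followed by a number and at most 1 letter, together with Hgs, Tsg101, Eea1 and Rilp. The rule uses no measured value, although earlier results of these data were known when the genes were chosen. It gave 72 of the 16179 genes in the deposited table, and Vps72, a chromatin protein that shares only the prefix, is among them. RNA was sequenced from microglia of the hippocampus of male progranulin knockout mice (strain B6.129S4(FVB)-Grntm1.1Far/Mmja) aged 10 months. Both groups carry that deletion, and wild-type mice are not part of the samples analysed here. Live CD11b+CD45lo cells, about 10000 per library, were sorted by BODIPY, a dye of neutral lipids, into a lipid droplet-low group (BODIPY-low, 3 libraries) and a lipid droplet-high group (BODIPY-high, 3 libraries). Each library was made from the pooled hippocampi of 2 mice, and the labels do not state whether libraries of the 2 groups came from one pool, so the p-values reflect the spread among these 6 libraries and no more, and that spread may be technical. Values of single libraries are in the order of replicates 1, 2 and 3, and pairs of means ± SD (n = 3 each) give the BODIPY-low group before the BODIPY-high group.

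Membrane proteins taken up from the cell surface meet at the early endosome, where they are either recycled or sent on to the lysosome. Retromer and the sorting nexins, which bind phosphoinositides through a PX domain, gather receptors into tubules that return them to the Golgi or the plasma membrane. ESCRT complexes collect ubiquitylated cargo and bud it into the lumen of multivesicular bodies, and HOPS then tethers late endosomes to lysosomes. In microglia these routes carry engulfed material to lysosomes, and progranulin itself is a lysosomal protein delivered through endosomes.

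Recovered reads came to 24982215 to 34899425 per library. Grn, the targeted gene, had normalised reads of 416, 625 and 990.1 (low) and 468, 657 and 1614 (high), and where along the gene these reads lie was not analysed here. The 8 microglia markers had a summed level of 1446351 to 1687265 normalised reads (low) against 1302174 to 1438507 (high), and of them Cx3cr1 was called lower by limma, edgeR and DESeq2 and Tmem119 by edgeR and DESeq2. Markers of other cells differed between the groups. All 8 choroid plexus and ependyma markers were called higher by limma (8 by edgeR, 7 by DESeq2), with summed levels of 3557 to 17868 (low) against 145536 to 253838 (high). Of 9 neutrophil markers limma called 8 lower, and edgeR and DESeq2 all 9 (31152 to 82882 against 200.2 to 2394), and of 5 tested monocyte markers limma called 4 lower and edgeR and DESeq2 3 each (5948 to 12872 against 102 to 604). Limma called 1 tested marker each of border macrophages (of 6), neurons (4), astrocytes (6) and endothelium (6) higher. These were Cd163, Syt1, Aldh1l1 and Slco1a4, to which DESeq2 added Mrc1, and edgeR and DESeq2 Slc17a7. Of the endothelium markers 4 were positive and 2 negative (median log2 fold change 0.06), and of the border macrophage markers 5 and 1 (0.82). All tested neuron and astrocyte markers were positive (medians 1.93 and 0.94). None of oligodendrocytes or B cells was called by limma (3 and 0 at an unadjusted p under 0.05, 1 and 0 by edgeR, 2 and 0 by DESeq2). Vcan was at 0 in all BODIPY-low and Nkg7 at 0 in all BODIPY-high libraries, while every other marker in the table had reads in both groups.

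Of the 72 genes, 70 had a mean of at least 10 normalised reads and were tested with limma on log2(value + 1), without a replicate block, BODIPY-high minus BODIPY-low, with adjustment over all 12821 tested genes. At an adjusted p below 0.05, Rilp, Vps28, Vps29 and Chmp3 rose and Snx18 and Snx29 fell in BODIPY-high libraries. The 4 rises are 5.71% of the 70, against 9.79% of all tested genes, and the 2 falls are 2.86%, against 3.52%. The same 6 genes were called by edgeR on the recovered reads, which called 9.48% of all genes higher and 3.33% lower. DESeq2 (11.4% and 5.23%) called these 6 and also Snx3, Vps25 and Snx19. Most log2 fold changes were small, as 67 of the 70 lay within 0.5 of zero, and the same number of 95% intervals lay within 1 of zero. Rilp, Snx22 and Snx32 were the exceptions on both counts. The counts changed when 1 library was left out, where a loss of power and dependence on that library cannot be told apart. Limma called 2 and 1 genes higher without BODIPY-high replicates 1 and 3, and 0 and 1 without BODIPY-low replicates 2 and 3. None was called lower without BODIPY-high replicate 2 or 3 or BODIPY-low replicate 1 or 3, and 1 without BODIPY-low replicate 2. In these limma fits 7 to 12 genes were higher and 3 or 4 lower at an unadjusted p under 0.05. The share of all tested genes at that unadjusted threshold was not computed. Counts at it, here and in the other paragraphs, therefore cannot be read as an excess.

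The median log2 fold change of the 70 genes was 0.08, beside -0.01 over all tested genes, and 47 values were positive and 23 negative (67.1% positive, against 48.1% of all tested genes). With the trend of each library on exon length removed, 44 were positive and 26 negative. For 19 genes the lowest BODIPY-high value exceeded the highest BODIPY-low value (27.1%, against 18.0% of all tested genes). The reverse held for 3 genes, Snx18, Snx29 and Snx19 (4.29%, against 13.4%). Against the BODIPY-low mean of each gene, the median over the 70 genes was -0.03, 0.03 and -0.01 (low) and 0.12, 0.04 and 0.08 (high). Without BODIPY-low replicate 1 the median log2 fold change was 0.038. The coefficient of variation among replicates had a median of 8.26% (low) and 7.38% (high). It reached 28.9% for Rilp (low) and 40.6% for Snx22 (high). In bulk RNA from sorted cells, a different share of cells of a type and a different amount of RNA per cell cannot be told apart.

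**Figure D1:**
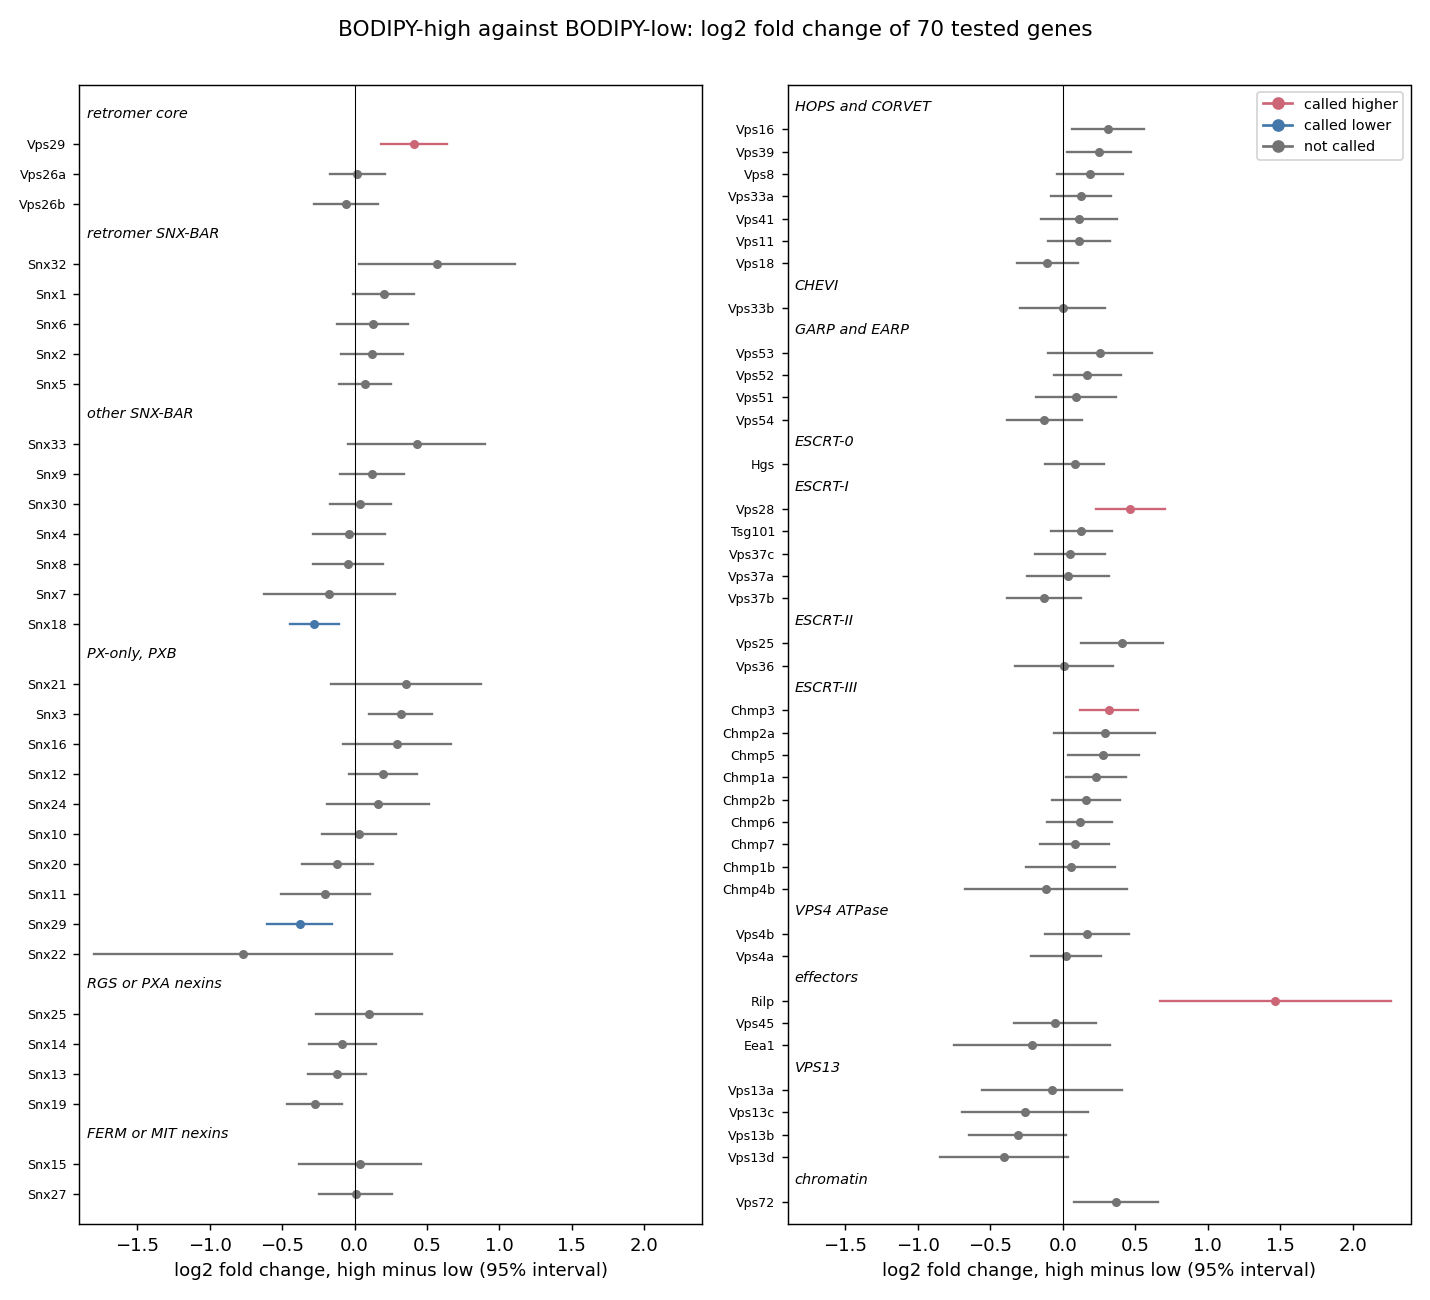
Log2 fold change (BODIPY-high minus BODIPY-low, points) with 95% interval (lines) from limma for the 70 tested genes, arranged by complex, with called genes in colour (n = 3 libraries per group). The 4 called higher (red) are spread over retromer, ESCRT-I, ESCRT-III and the effectors, the 2 called lower (blue) are sorting nexins, and all 4 VPS13 points lie left of zero (Vps13a turned positive with the trend on exon length removed).

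Vps29, a small scaffold subunit of the retromer core (chromosome 5, 122354369 to 122364984), had normalised reads of 1624, 1422 and 1404 (low) and 1936, 2027 and 1943 (high). Every BODIPY-high library lay above every BODIPY-low library, and Vps29 rose 1.33-fold (log2 fold change 0.41, SE 0.10, adjusted p = 0.0231). The call was lost without BODIPY-low replicate 2 or 3 (adjusted p = 0.101 and 0.108) and without BODIPY-high replicate 2 or 3 (0.0596 and 0.0725). Exons of Vps29 overlap those of Fam216a on the other strand, the kits used do not mark strand, and Fam216a, at 249.9 ± 16.4 and 453 ± 93.8, also rose (log2 fold change 0.84, SE 0.20, adjusted p = 0.0166). Its part in the Vps29 value was not tested. The arrestin-like retromer subunits stayed within narrow bounds without a call. Vps26a had 5144, 5062 and 4854 (low) and 5469, 4813 and 4992 (high) (log2 fold change 0.02, SE 0.09, adjusted p = 0.919, 95% interval -0.17 to 0.21), and its paralog Vps26b had 2135 ± 145 and 2049 ± 95.8 normalised reads (log2 fold change -0.06, interval -0.28 to 0.16).

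The SNX-BAR proteins that tubulate retromer-coated membrane gave no call by limma, edgeR or DESeq2, although all 5 log2 fold changes were positive (median 0.12) and 1 had an unadjusted p under 0.05. Snx5, the most abundant of them, had 11090.2, 12086 and 11903 (low) and 12798, 12563 and 11552 (high) normalised reads, with overlapping groups (log2 fold change 0.07, SE 0.08, adjusted p = 0.617). Snx2 and Snx6 had log2 fold changes of 0.12 and 0.12. Snx1 had 2450.3 ± 188 and 2812 ± 49.6 (log2 fold change 0.20, SE 0.09, adjusted p = 0.201), without overlap between the groups. Snx32, a paralog of Snx5 and Snx6 with low reads here, had 143, 172 and 118 (low) and 206, 179 and 258 (high) (log2 fold change 0.57, SE 0.24, adjusted p = 0.159, interval 0.03 to 1.11), again without overlap. Exons of Snx32 overlap those of the abundant gene Cfl1 on the other strand, which had 8726 ± 1667 and 10882 ± 718 normalised reads (log2 fold change 0.33, adjusted p = 0.103).

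Snx18, which has an SH3 domain beside its PX and BAR domains and remodels membrane in endocytosis and autophagy (chromosome 13, 113592179 to 113618564), was the most abundant of the 72 genes. It had 19305, 20546 and 19591 (low) and 17064, 15434 and 16578 (high) normalised reads. The 3 BODIPY-high values all lay below the 3 BODIPY-low values, and Snx18 fell to 0.825 of its BODIPY-low level (log2 fold change -0.28, SE 0.08, adjusted p = 0.0381). The call held without BODIPY-high replicate 1 (adjusted p = 0.0374) and was lost without any other library (adjusted p = 0.0508, 0.151 and 0.113 without BODIPY-low replicates 1, 2 and 3, and 0.107 and 0.106 without BODIPY-high replicates 2 and 3). Its relatives were not called. Snx9, the closest in domain make-up, had 1485 ± 30.7 and 1616 ± 76.4 (log2 fold change 0.12, adjusted p = 0.490), and Snx33, the remaining SH3-bearing member, had 241, 209.9 and 227 (low) and 268, 263 and 402 (high) (log2 fold change 0.43, SE 0.21, adjusted p = 0.229). The highest Snx33 value, that of BODIPY-high replicate 3, stood well above the others. The 4 other SNX-BAR genes (Snx4, Snx7, Snx8 and Snx30) were not called, with log2 fold changes of -0.17 to 0.04.

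Snx29, a PX protein with a RUN domain (chromosome 16, 11322908 to 11755472), was the other gene to fall. It had 2852, 2595 and 3054 (low) and 2353, 2070.4 and 2109 (high) normalised reads. The groups did not overlap (log2 fold change -0.38, SE 0.10, adjusted p = 0.0324). The Snx29 call ended without BODIPY-low replicate 1 or 3 (adjusted p = 0.0679 and 0.153) and without replicate 2 or 3 of the high group (0.0820 and 0.111). Despite its RUN domain, Snx29 was grouped with the sorting nexins that carry a PX domain alone or with a PXB domain. In this class no gene rose by edgeR or by limma without a replicate block when all 6 libraries were used (2 of the 10 had an unadjusted p under 0.05, 1 of them Snx29). DESeq2 called Snx3 higher. Snx3 recruits retromer to cargo such as the Wnt carrier Wntless, and had 2995, 2485 and 2795 (low) and 3247, 3522 and 3529 (high), with no overlap between groups (log2 fold change 0.32, SE 0.10, adjusted p = 0.0575, DESeq2 adjusted p = 0.0264). Limma also called it without BODIPY-low replicate 1 (adjusted p = 0.0407). Its paralog Snx12 had 1386 ± 115 and 1582 ± 33.4 (log2 fold change 0.19, adjusted p = 0.279). Snx22 had the most negative value of the 70 genes but few reads, 32.0, 42.6 and 48.3 (low) and 20.7, 17.0 and 35.8 (high), and its interval of -1.80 to 0.26 spans zero. Snx21, with 118 ± 9.61 and 151 ± 13.8, had the most positive value of this class (0.36, adjusted p = 0.372). Snx10, Snx11, Snx16, Snx20 and Snx24 were not called (log2 fold changes -0.20 to 0.30). Neutrophil and monocyte markers were lower in the libraries in which Snx18 and Snx29 fell (summed neutrophil levels of 31152 to 82882 against 200.2 to 2394). Microglia markers had 6 negative and 2 positive log2 fold changes in the same comparison (median -0.18). Choroid plexus and ependyma markers were higher (median 4.66). The part of any of these cell types in the falls of Snx18 and Snx29 was not tested.

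Sorting nexins with an RGS or PXA domain, several of which tether endosomes to the endoplasmic reticulum, gave 3 negative values and 1 positive, and limma and edgeR called none (1 unadjusted p under 0.05). Snx19 had 3022, 3161 and 3056 (low) and 2574, 2549.5 and 2517 (high) normalised reads. The BODIPY-high values lay in a narrow band below all BODIPY-low values (log2 fold change -0.27, SE 0.09, adjusted p = 0.0598), and DESeq2 called it lower (adjusted p = 0.0228). Snx13 and Snx14 had log2 fold changes of -0.12 and -0.08, and Snx25 had 0.10 (adjusted p = 0.759). Snx27, which links recycling receptors to retromer through its PDZ and FERM domains, had 1407 ± 108 and 1414 ± 109.9 (log2 fold change 0.01, SE 0.11, adjusted p = 0.976, interval -0.24 to 0.26). Snx15 had 513 ± 28.0 and 537 ± 132 (log2 fold change 0.04). Snx31 had 3 reads over the low and 2 over the high group and was not tested.

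**Figure D2:**
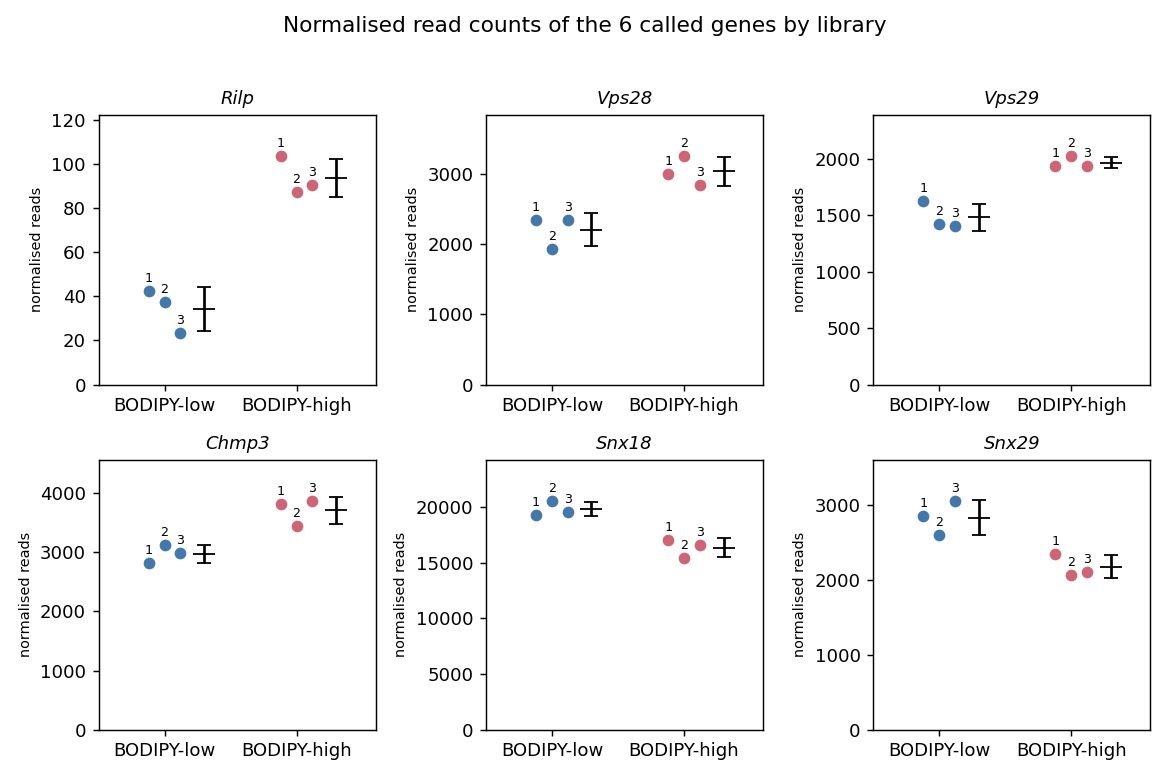
Normalised reads (y axis, from 0) of the 6 called genes in each library, with replicate numbers above the points and the mean ± SD in black (n = 3 per group). Groups do not overlap for any of the 6, Rilp has at most 104 reads in every library, and Snx18 stands between 15434 and 20546.

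Rilp, the adaptor that couples Rab7 on late endosomes to the dynein motor and HOPS (chromosome 11, 75510094 to 75513168), had the largest fold change of the 70 genes from a low level. Its normalised reads were 42.3, 37.3 and 23.2 (low) and 104, 87.2 and 90.6 (high). All BODIPY-high values lay well above the highest BODIPY-low value, and Rilp rose 2.76-fold (log2 fold change 1.47, SE 0.36, adjusted p = 0.0216, interval 0.67 to 2.26). These rest on 97 reads in the BODIPY-low and 301 in the BODIPY-high group. Without BODIPY-low replicate 2 or 3 the adjusted p was 0.0503 and 0.0837, and without BODIPY-high replicate 1 or 3 it was 0.0619 and 0.0678. Rab7 itself, a small GTPase of late endosomes, had 7671, 8279 and 7795 (low) and 10267, 9317 and 9951 (high) (log2 fold change 0.31, SE 0.08, adjusted p = 0.0250), with no overlap between groups. The median log2 fold change of the choroid plexus and ependyma markers was 4.66 in this comparison, and their part in the rise of Rilp and of the other called genes was not tested.

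No subunit of HOPS or CORVET, the tethers of late and early endosomes, was called by limma, edgeR or DESeq2, and 2 of 7 had an unadjusted p under 0.05. Log2 fold changes were positive for 6 of the 7 (median 0.13). Vps16, a core subunit, had 1004, 1191 and 1166 (low) and 1409, 1363 and 1385 (high) normalised reads, without overlap (log2 fold change 0.31, SE 0.11, adjusted p = 0.0988). Vps39, which is specific to HOPS and binds Rab7, had 2884, 2943 and 3427 (low) and 3900.5, 3467 and 3627 (high), also without overlap (log2 fold change 0.25, SE 0.10, adjusted p = 0.130). With the trend of each library on exon length removed, Vps39 alone of the 7 was called, as higher (adjusted p = 0.0345). Vps41, its partner in HOPS, had 2951, 3010.2 and 3052 (low) and 3938, 2904 and 2989 (high) (log2 fold change 0.11, SE 0.12, adjusted p = 0.603), where only BODIPY-high replicate 1 stood above the BODIPY-low range. Vps18, the most abundant subunit by reads, had 8122 ± 663 and 7549.98 ± 681 (log2 fold change -0.11, adjusted p = 0.533). Vps8, found in CORVET only, and the core subunits Vps11 and Vps33a had 0.19, 0.11 and 0.13. Vps33b, the Vps33a paralog that works in another tether (CHEVI), had 789 ± 90.7 and 786 ± 42.0 and an interval of -0.29 to 0.29.

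GARP and EARP tether vesicles that return from endosomes to the Golgi or recycle, and share Vps51, Vps52 and Vps53. Limma, edgeR and DESeq2 called none of their 4 genes, and none had an unadjusted p under 0.05. Log2 fold changes ran from -0.13 for Vps54, the GARP-specific subunit, to 0.26 for Vps53, which had 699, 900.4 and 684 (low) and 813, 825 and 1096 (high) normalised reads. Vps51 and Vps52 had 0.09 and 0.17. Vps53 in BODIPY-high replicate 3 was the highest of its 6 values, and the groups overlapped. Among early endosome proteins, Eea1, a Rab5 effector and tether, had 245, 263 and 233 (low) and 269, 148 and 241 (high) (log2 fold change -0.21, SE 0.24, adjusted p = 0.634). BODIPY-high replicate 2 was the lowest Eea1 value. Vps45, an SM protein for fusion at early endosomes, had 767 ± 73.6 and 736 ± 23.0 (log2 fold change -0.06, adjusted p = 0.823).

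The ESCRT machinery had positive values for 17 of 19 tested genes (median log2 fold change 0.12), that is 89.5%, against 48.1% of all tested genes. That background varied with exon length, as 38.6% of all genes under 2 kilobases were negative, against 57.7% at 5 to 10 kilobases. With the trend of each library on exon length removed, 7 of 9 ESCRT-III and 4 of 5 ESCRT-I genes were positive. So were 1 of 2 VPS4 genes, both ESCRT-II genes and Hgs. Only 2 of the 19 were called, both higher (10.5%, close to the 9.79% of all tested genes). Vps28, the ESCRT-I subunit that binds ESCRT-II (chromosome 15, 76622087 to 76626086), had 2337, 1929 and 2337 (low) and 2999, 3253 and 2846 (high) normalised reads. The BODIPY-high values all lay above the BODIPY-low values, and Vps28 rose 1.38-fold (log2 fold change 0.47, SE 0.11, adjusted p = 0.0161). Of the 6 calls this one was lost least often, only without BODIPY-low replicate 2 (adjusted p = 0.0777). Exons of Vps28 overlap those of Tonsl on the same strand, and Tonsl had 186 ± 36.0 and 133 ± 9.13 normalised reads (log2 fold change -0.46, adjusted p = 0.249). Tsg101, the ubiquitin-binding ESCRT-I subunit, had 3316, 2858 and 2939.7 (low) and 3300.3, 3166 and 3486 (high) (log2 fold change 0.13, SE 0.10, adjusted p = 0.431), and the groups overlapped. The alternative subunits Vps37a, Vps37b and Vps37c had log2 fold changes of 0.03, -0.13 and 0.05. Vps37d had 8 reads over the low and 28 over the high group and was not tested. Hgs, which captures ubiquitylated cargo in ESCRT-0, had 2743 ± 177 and 2898 ± 105 (log2 fold change 0.08, SE 0.09, adjusted p = 0.631, interval -0.12 to 0.28).

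In ESCRT-II, Vps25 had 1384, 1066 and 1373 (low) and 1558, 1802 and 1688 (high) normalised reads, with no overlap between groups (log2 fold change 0.41, SE 0.13, adjusted p = 0.0604), and DESeq2 called it higher (adjusted p = 0.0304). Its partner Vps36 had 606 ± 64.4 and 612 ± 86.0 (log2 fold change 0.01, adjusted p = 0.977). Chmp3, one of the ESCRT-III subunits that polymerise at the bud neck (chromosome 6, 71543797 to 71582609), had 2812, 3117 and 2995 (low) and 3824, 3449.99 and 3865 (high). The groups were apart, and Chmp3 rose 1.25-fold (log2 fold change 0.32, SE 0.09, adjusted p = 0.0425). Of the 6 fits with a library left out, only that without BODIPY-high replicate 2 kept the call (adjusted p = 0.0361, against 0.107, 0.0863 and 0.128 without BODIPY-low replicates 1, 2 and 3, and 0.0780 and 0.151 without BODIPY-high replicates 1 and 3). Exons of 1700040L08Rik overlap Chmp3 on the other strand. Chmp1a, Chmp5 and Chmp2b also had all BODIPY-high values above all BODIPY-low values, with log2 fold changes of 0.23, 0.28 and 0.16 and adjusted p of 0.142, 0.132 and 0.374. Chmp2b, in which mutations cause a frontotemporal dementia as progranulin mutations do, had 1429, 1417 and 1252 (low) and 1464, 1559.6 and 1551 (high). Chmp2a had 1297 ± 309 and 1559.9 ± 104 (0.29), and Chmp4b, which had few reads for a core ESCRT-III subunit, had 141, 172 and 206 (low) and 123, 176 and 179.6 (high) (-0.12, interval -0.68 to 0.44). Chmp6 and Chmp7 had log2 fold changes of 0.12 and 0.08, without a call.

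The ATPases that take ESCRT-III apart were not called by limma, edgeR or DESeq2, and neither had an unadjusted p under 0.05. Vps4a had 2061 ± 108 and 2100.2 ± 222 normalised reads (log2 fold change 0.02, SE 0.11, adjusted p = 0.922). Vps4b had 4759, 4325 and 4419 (low) and 6241, 4154 and 4959 (high) (log2 fold change 0.17, SE 0.13, adjusted p = 0.467), with BODIPY-high replicates 1 and 3 above and replicate 2 below the whole BODIPY-low range. Among ESCRT-III genes, BODIPY-high replicate 1 was also the highest library for Chmp1b, Chmp2a and Chmp5. Chmp1b (log2 fold change 0.06) had 2656 there, against 1778 and 2157 in BODIPY-high replicates 2 and 3.

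All 4 VPS13 genes, which encode long bridge-like proteins that move lipids between membranes, had negative log2 fold changes, and limma, edgeR and DESeq2 called none (none with an unadjusted p under 0.05). Vps13d had 477, 346 and 491 (low) and 267, 362 and 359.9 (high) normalised reads (log2 fold change -0.41, SE 0.20, adjusted p = 0.224). Vps13b had 1165, 1131 and 1322 (low) and 1167, 780.4 and 998 (high) (log2 fold change -0.31, SE 0.15, adjusted p = 0.219), and Vps13c, which acts at contacts of the endoplasmic reticulum with late endosomes and lipid droplets, had 306, 378 and 418 (low) and 285, 266 and 371 (high) (log2 fold change -0.26, SE 0.20, adjusted p = 0.449). Vps13a had 183 ± 25.8 and 173 ± 17.1 (log2 fold change -0.07), which became 0.037 without BODIPY-low replicate 3 and 0.086 with the trend on exon length removed. Groups overlapped for all 4. Vps72, a histone chaperone that acts in the nucleus, had 1129.7, 889.7 and 871 (low) and 1181, 1316 and 1214 (high), without overlap (log2 fold change 0.37, SE 0.13, adjusted p = 0.0927). Limma called it higher without BODIPY-low replicate 1 (adjusted p = 0.0311).

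Log2 fold changes of the 70 genes were lower for genes with longer exons. Spearman's rho between exon length and log2 fold change was -0.43 over these genes, -0.34 over the 66 genes other than VPS13, and -0.13 over 12346 tested genes with a known length. Pearson's r on log2 exon length was -0.45, -0.35 and -0.0028 in the same sets, so the value over all tested genes depended on the measure. These are descriptions across genes measured in the same 6 libraries, and genes are not independent replicates. The 6 genes under 2 kilobases (Rilp, Chmp2a, Chmp2b, Chmp5, Snx3 and Vps25) were all positive, with a median of 0.30, against 0.12 over all 1628 genes of that length. At 10 kilobases or more stood only the 4 VPS13 genes (median -0.29), against -0.10 over all 1180 such genes. With each library's trend on exon length removed, the VPS13 median was -0.12 and Vps13a turned positive (0.09), while the median of all 70 genes was 0.09. In that fit Chmp3 and Snx29 lost their calls (adjusted p = 0.0520 and 0.0548).

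**Figure D3:**
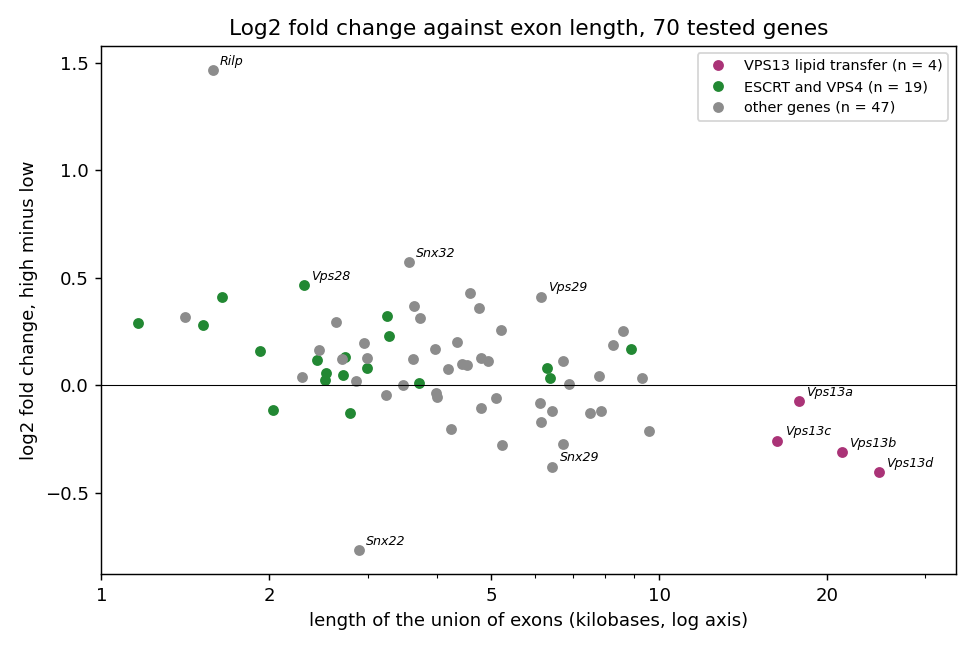
Log2 fold change (y axis) against the length of the union of a gene's exons (x axis, kilobases, log scale) for the 70 tested genes, with VPS13 genes in purple and ESCRT and VPS4 genes in green. The 4 VPS13 genes lie at the right below zero (Vps13a turned positive with the length trend removed), and Rilp stands alone at the top left.

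Levels per kilobase of exon differed far more between genes than between groups. Snx18 (3796 normalised reads per kilobase in BODIPY-low libraries) and Snx5 (2799) led, followed by Snx3 (1952), Vps26a (1755) and Vps18 (1697). At the other end 15 genes lay below 100, among them Rilp (21.6), Eea1 (25.7), Chmp4b (85.2) and all 4 VPS13 genes (10.3 to 56.7). Within HOPS and CORVET the level of Vps18 was followed by Vps33a (674) and Vps11 (653), and Vps8 was lowest (267). The union of exons can be longer than the transcripts made, which lowers the value per kilobase of a gene such as Vps29 (241, over 6.15 kilobases).

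**Figure D4:**
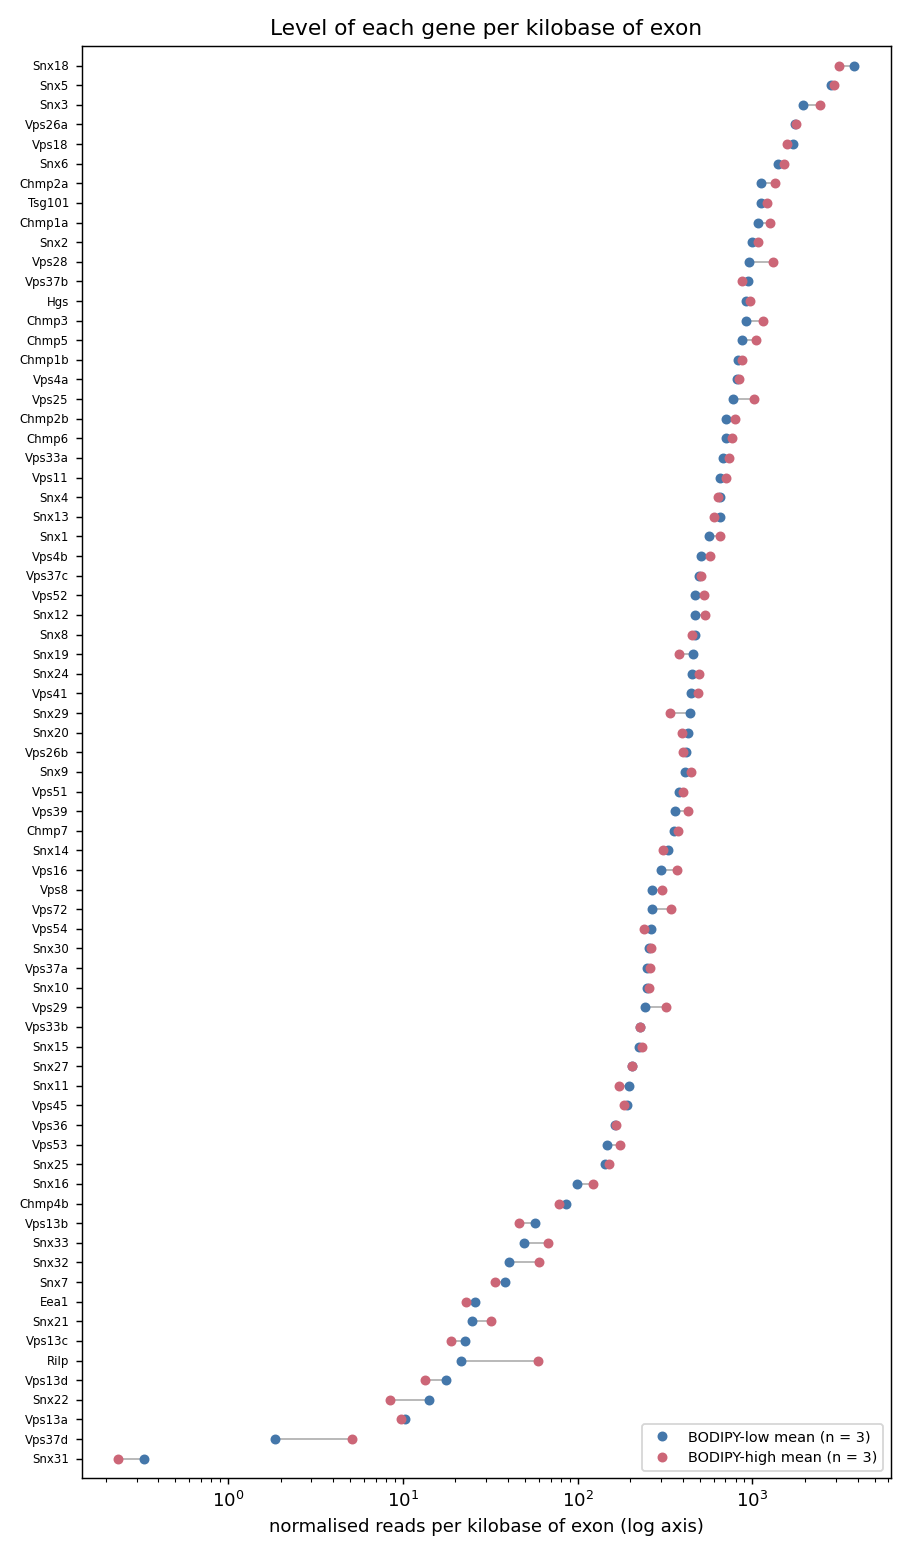
Mean normalised reads per kilobase of exon (x axis, log scale) for the 72 genes, in order of the BODIPY-low level, with BODIPY-low in blue and BODIPY-high in red (means of n = 3 libraries). The largest ratio of high to low is that of Rilp, from 21.6 to 59.3, while the genes themselves run, over both groups, from 0.236 for Snx31 to 3796 for Snx18.

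Pairs of paralogs gave log2 ratios of normalised reads that overlapped between the groups. This held for all 9 pairs computed. Exact two-sided permutation p ranged from 0.2 to 0.8 (0.771 to 0.8 after Benjamini-Hochberg adjustment over the 9), where 3 libraries against 3 cannot go below 0.1. Reads of Vps26a exceeded those of Vps26b by a log2 ratio of 1.23 ± 0.06 (low) and 1.31 ± 0.16 (high). The log2 ratio of Vps4a to Vps4b was -1.13 ± 0.14 (low) and -1.27 ± 0.32 (high), and that of Vps33a to Vps33b was 2.04 ± 0.16 (low) and 2.16 ± 0.16 (high). For Snx5 to Snx6 it was 1.49 ± 0.22 (low) and 1.44 ± 0.10 (high). For Snx3 to Snx12, the pair with the smallest p, it was 0.99 ± 0.05 (low) and 1.12 ± 0.09 (high). Differences between groups in the remaining pairs (Snx1 to Snx2, Vps37a to Vps37b, Chmp2a to Chmp2b, Chmp1a to Chmp1b) were 0.08, 0.16, 0.13 and 0.17.

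Promoter sequences of RefSeq (GRCm38.p6) were matched by symbol for 50 of the 72 genes, in 61 windows that run from 250 bases before a transcription start to 50 after it. They were searched for CACGTG, the E-box at the core of the element bound by TFEB, a transcription factor of lysosomal genes. The motif is its own reverse complement, so both strands are covered. It stood in 7 of the 61 windows (11.5%), against 9.87% of the 12539 windows of tested genes and 7.15% of all 32851 windows, and belonged to Vps16, Vps26a, Vps33a, Snx5, Snx8 and Snx18. Of the called genes with a window (Rilp, Vps29, Chmp3, Snx18 and Snx29) only Snx18, which fell, held it, 186 bases before the start. Vps33a held it at 28 and 12 bases before the start. Shown are the 250 bases before the start, 5′ to 3′ on the gene's strand with CACGTG in capitals, of Rilp (the largest fold change), of Vps29 (the called retromer gene), of Snx18 (the most abundant gene, which fell) and of Vps33a (the HOPS gene with 2 matches). A match describes these letters only.
Rilp (chr11:75509844-75510093, plus strand): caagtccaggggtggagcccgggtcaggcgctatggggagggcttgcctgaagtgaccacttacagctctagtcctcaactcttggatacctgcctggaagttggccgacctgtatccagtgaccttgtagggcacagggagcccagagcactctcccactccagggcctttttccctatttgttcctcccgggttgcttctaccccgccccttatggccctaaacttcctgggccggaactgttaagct
Vps29 (chr5:122354078-122354327, plus strand): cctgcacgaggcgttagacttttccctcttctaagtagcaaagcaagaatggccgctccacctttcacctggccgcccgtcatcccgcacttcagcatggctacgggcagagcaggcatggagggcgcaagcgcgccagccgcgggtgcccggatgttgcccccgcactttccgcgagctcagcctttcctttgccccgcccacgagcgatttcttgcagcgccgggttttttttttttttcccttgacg
Snx18 (chr13:113618565-113618814, minus strand): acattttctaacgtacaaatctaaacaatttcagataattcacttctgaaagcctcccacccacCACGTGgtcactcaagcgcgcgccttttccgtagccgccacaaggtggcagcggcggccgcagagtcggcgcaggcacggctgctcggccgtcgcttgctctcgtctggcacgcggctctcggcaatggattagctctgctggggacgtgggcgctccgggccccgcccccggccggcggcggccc
Vps33a (chr5:123573016-123573265, minus strand): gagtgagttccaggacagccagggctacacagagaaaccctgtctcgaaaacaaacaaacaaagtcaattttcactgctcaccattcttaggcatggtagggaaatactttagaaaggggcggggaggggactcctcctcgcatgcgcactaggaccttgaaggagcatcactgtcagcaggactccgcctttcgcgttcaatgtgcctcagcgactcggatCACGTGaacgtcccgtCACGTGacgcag

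Partners of these complexes that the symbol rule leaves out were described from 6 lists. Of 67 tested, 2 were called higher by limma and none lower (8 at an unadjusted p under 0.05, 2 by edgeR and 2 by DESeq2), that is 2.99%, against 9.79% of all tested genes, and the median log2 fold change was 0.02. Igf2r, the cation-independent mannose 6-phosphate receptor that retromer retrieves to the Golgi, had 111, 89.5 and 123 (low) and 444, 204 and 403 (high) normalised reads. Every BODIPY-high value lay above every BODIPY-low value, and Igf2r rose 3.08-fold (log2 fold change 1.62, SE 0.30, adjusted p = 0.00515). Its adjusted p stayed between 3.77e-06 and 0.0343 over all alternatives. As with Rilp, choroid plexus and ependyma markers were higher in these libraries (summed levels of 3557 to 17868 against 145536 to 253838), and their part in the rise of Igf2r was not tested. Rab7 was the other call, lost without BODIPY-low replicate 1, 2 or 3 (adjusted p = 0.0602, 0.0552 and 0.102) and without BODIPY-high replicate 1 or 3 (0.0536 and 0.0952). Sort1, which encodes sortilin, a receptor that takes up progranulin, had 15475 ± 482 and 13617 ± 1337 (log2 fold change -0.19, SE 0.09, adjusted p = 0.197).

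Within those lists, ESCRT partners (13 tested, median 0.02), the COMMD, Ccdc22 and Ccdc93 genes (12, 0.12), enzymes of phosphoinositides (10, 0.09) and endosomal SNAREs (11, 0.12) had no call by limma, edgeR or DESeq2, with 1, 2, 2 and 1 genes at an unadjusted p under 0.05. The HOPS partners and Rab7 switch genes (16, median -0.02) and the cargo receptors (5, -0.04) held the 2 calls. Pikfyve, the kinase that makes PI(3,5)P2 on late endosomes, had the most negative value of the 67, at 1009.7, 857 and 979 (low) and 848, 643 and 558 (high) normalised reads (log2 fold change -0.49, SE 0.16, adjusted p = 0.0751), without overlap. Limma called it lower without BODIPY-high replicate 1 (adjusted p = 0.0182).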

How the data were processed

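Gene expression was measured by RNA sequencing (SmartSeq v4 and Nextera XT, per the labels) in 2 groups of 3 libraries. Per the submitters' processing notes, FastQC 0.11.4, STAR 2.5.3a and DESeq2 were used with mouse mm10, and mm9 is also listed. Which annotation and strand setting were used is not given in the sources used here. Values were deposited as a normalised signal, in which the reads of a gene are divided by a factor of the library. Whole reads were recovered from the smallest value of each library (100% of values whole at a tolerance of 0.01 read).

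Each gene with a mean of at least 10 was tested with limma 3.58.1 (trended variance, two-sided, no block, in R 4.3.3) on log2(value + 1), with Benjamini-Hochberg adjustment over 12821 genes. The pseudocount of 1 shrinks changes of low genes. edgeR 4.0.16 (quasi-likelihood) and DESeq2 1.42.0 on recovered reads were among the 16 alternatives, and the tests were checked on simulated data. Coordinates and exon lengths come from GENCODE M21 (GRCm38, the assembly of mm10).

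The members, complexes and lists were chosen with earlier results of these data known. Members named are those called, the largest and smallest change per complex, 9 paralog pairs, and Hgs, Tsg101, Eea1, Rilp, Vps29, Vps41, Chmp2b and Vps4a. Others were named to complete a class after their values were seen, as were Pikfyve and Sort1. A pair of genes of these families is not reported here.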

Additional observations from a re-analysis of the deposited data

How the results depend on the processing

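With 1 library left out, limma called 0 to 5 of the 70 genes higher and 0 to 2 lower, in place of 4 and 2, and the median log2 fold change ran from 0.038 to 0.10. It was lowest without BODIPY-low replicate 1. No gene was called higher without BODIPY-low replicate 2. Each of the 6 calls was lost in at least 1 of the 6 fits that leave out a library, where fewer libraries are tested, and none turned direction in any of the 16 alternatives. With the trend on exon length removed, an alternative chosen after seeing the data, 1 gene was called lower and Vps39 was called higher in place of Chmp3. With a mean of at least 50, Chmp3 was lost (adjusted p = 0.0508). Pseudocounts of 0.5 and 5, no filter, TMM factors, robust variance and edgeR kept all 6 calls. Of the 64 genes that were not called, 20 had a log2 fold change that crossed zero in some alternative. With 1 library left out their ranges were -0.091 to 0.20 for Chmp1b, -0.26 to 0.057 for Chmp4b, -0.38 to 0.046 for Eea1, -0.088 to 0.12 for Snx10, -0.12 to 0.25 for Snx15, -0.028 to 0.28 for Snx24, -0.040 to 0.22 for Snx25, -0.050 to 0.072 for Snx27, -0.13 to 0.056 for Snx4, -0.098 to 0.021 for Snx8, -0.15 to 0.037 for Vps13a, -0.034 to 0.058 for Vps26a, -0.053 to 0.091 for Vps33b, -0.10 to 0.086 for Vps36, -0.10 to 0.11 for Vps37a, -0.0034 to 0.097 for Vps37c, -0.028 to 0.19 for Vps41, -0.11 to 0.019 for Vps45, -0.026 to 0.11 for Vps4a and -0.013 to 0.17 for Vps51. With the length trend removed Chmp1b was -4.57e-05, Snx15 -0.035, Vps13a 0.086, Vps26a -0.017 and Vps4a -0.033. Snx27 was -0.00138 by edgeR and -7.25e-04 with TMM factors. The cause of these changes was not tested.

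Libraries of the same replicate number had correlated deviations from their group means (0.11, 0.14 and 0.07 for numbers 1, 2 and 3), too weak in the third to show that the numbers pair the samples, although each library correlated best with its own number. With the replicate number as a block, 6 genes were called higher, now with Snx3 (adjusted p = 0.0439) and Vps25 (0.0486), and 2 lower, and Pikfyve was called lower (0.0368).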
